A study of Mus musculus with 6 samples.

Results

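The genes described here are 30 mouse genes that build, attach, remodel or cut the glycosylphosphatidylinositol (GPI) anchor. They were taken by name (the Pig, Pgap and Dpm genes with Gpaa1, Mpdu1, Mppe1 and Gpld1) out of 15707 annotated genes with a measured base, and a gene's transcripts were those overlapping its annotated exons on its own strand. Of the 30 genes, 27 were among the 12890 genes tested. The samples were ventral lumbar cord of C57BL/6 mice aged 5 weeks, as 3 WT and 3 Gde2KO RNA libraries. The allele behind the Gde2KO label, the sex of the mice and the number of mice per library are not given in the sources used here, so p-values measure the spread between these libraries, which may be technical. Levels are FPKM (fragments per kilobase of transcript, relative to the fragments mapped in that library) from transcripts that the authors assembled separately in each library.

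A GPI anchor is a glycolipid that holds a protein on the outer face of the plasma membrane in place of a transmembrane segment. The anchor is built on phosphatidylinositol in the endoplasmic reticulum by the stepwise addition of glucosamine, mannose and phosphoethanolamine, with dolichol phosphate mannose as the mannose donor, and the GPI transamidase then joins it to the carboxyl end of a protein. Side groups and lipid chains are afterwards changed in the endoplasmic reticulum and Golgi. GDE2, the product of Gdpd5, is a multi-pass membrane enzyme that cuts GPI anchors at the surface of neurons and other cells.

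Mppe1, which removes a phosphoethanolamine side group from the anchor after its attachment to protein, was listed at 0 in all 3 WT libraries and had 6.39, 8.85 and 10.4 FPKM in the Gde2KO libraries. It was the only 1 of 27 tested anchor genes to pass, and since WT has no level its p rests on the pseudocount: adjusted p = 0.00130 with 0.1 and 0.341 with 0.01 in limma. Of the 23 tested genes with a level above 0 in all 6 libraries, 21 had a 95% interval that included a fold of 1. Pigz and Pgap2 had lower FPKM in every Gde2KO library than in any WT library, and the transcripts of both ended in a longer last exon in the Gde2KO libraries that held them.

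The targeted gene was checked first. Gdpd5 had 5.39, 6.58 and 5.99 FPKM in WT and 1.25, 1.21 and 0.953 FPKM in Gde2KO, so the groups did not overlap. On the log2(FPKM + 0.1) scale it fell by 2.30 (SE 0.13, limma, adjusted p = 0.00544). When each transcript was given to 1 gene and summed, it fell by 1.45 and missed the threshold (limma, adjusted p = 0.0802). The libraries held 31899 to 33791 assembled transcripts each and had depths of 0.910 to 1.14 relative to each other, as read from the coverage per FPKM. The files hold no read counts, so no counting interval can be given. Gde2KO replicate 3 stood apart over all genes tested, with a robust SD of 0.257 to 0.291 (log2) against each other library, where the other pairs had 0.146 to 0.194. Gde2KO replicate 1 had the lowest summed level of connective tissue markers (43.5 FPKM, against 81.6 to 109 in the other libraries) and of Schwann cell markers (131 FPKM, against 210 to 360), and none of the markers of 12 cell type or position lists passed the test. Motor neuron markers summed to 160 to 194 FPKM in WT and 194 to 218 FPKM in Gde2KO. Lumbar Hox genes summed to 103 to 119 FPKM in WT and 84.6 to 112 FPKM in Gde2KO. On the log2 scale, all tested markers were lower in Gde2KO for lumbar position (6 genes), endothelium (5), connective tissue (5), Schwann cells (4), red blood cells (2) and muscle (1). Of the motor neuron and of the astrocyte markers 5 of 6 were higher, and the remaining lists went both ways. No list was tested as a set.

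Because RNA was taken from whole tissue, fewer cells of a type and less RNA per cell cannot be told apart in any value given here. Over the 12890 genes tested, 15 passed an adjusted p of 0.05 in limma (0.116%), 5 of them higher in Gde2KO (0.0388%) and 10 lower (0.0776%). Among the 27 tested anchor genes, 1 passed (3.70%), and it was higher in Gde2KO. That gene, Mppe1, passed the filter on low levels only through its Gde2KO libraries. The groups did not overlap for 1417 of all genes tested (11.0%) and for 6 anchor genes (22.2%). Of these 6, Pigh, Pigm, Pigs and Mppe1 were higher in Gde2KO and Pigz and Pgap2 lower. These are 14.8% and 7.41% of the tested anchor genes, beside 5.42% of all genes tested for higher without overlap and 5.57% for lower. Counts of higher and lower genes here and below are by the difference in log2(FPKM + 0.1). On that scale 19 anchor genes were higher in Gde2KO and 8 lower, and the differences had a median of 0.08. By mean FPKM the split was 18 and 9, since Dpm2 changed sides. Over all genes tested 51.0% were higher and the median was 0.00. With no scaling between libraries the split was 16 higher and 11 lower, beside 40.0% of all genes tested higher. With quantile normalization it was 18 and 9, beside 52.0%.

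**Figure D1:**
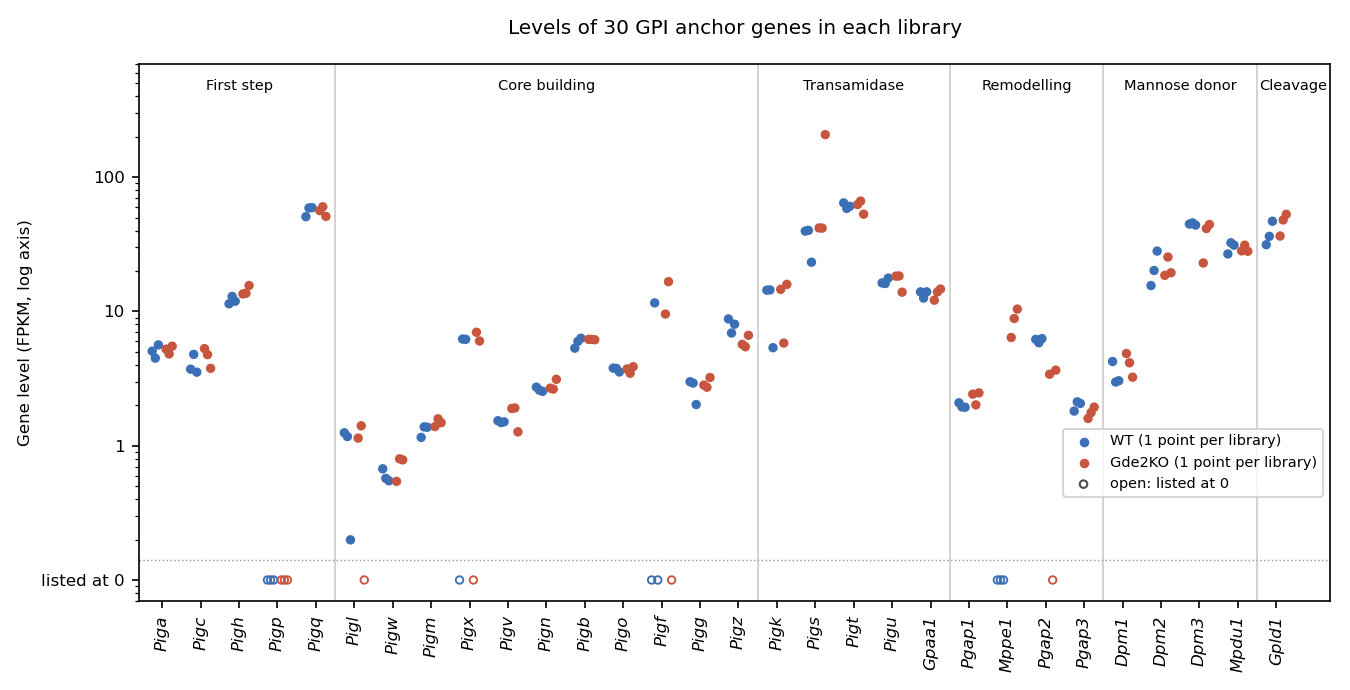
Gene level in FPKM (log axis) of the 30 anchor genes, ordered by role, with 1 point for each WT (blue) and Gde2KO (red) library and open points for a gene listed at 0. The WT and Gde2KO points lie together for most genes, while Mppe1 is at 0 in all 3 WT libraries and Pigp in all 6.

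The anchor genes covered a wide range of levels per length in WT cord. The highest mean was that of Pigt, a transamidase subunit, at 61.1 ± 2.9 FPKM (SD, n = 3), followed by Pigq at 56.3 ± 4.8, Dpm3 at 44.8 ± 0.8 and Gpld1 at 38.2 ± 8.0. Pigt and Pigq did not differ beyond their spread, and neither did Dpm3 and Gpld1. Pigt stood at the 92.0th percentile of WT means among the genes tested. At the low end were Pigv at 1.51 ± 0.02 and Pigm at 1.30 ± 0.13, the mannosyltransferases that add the second and the first mannose, with Pigl at 0.873 ± 0.585 and Pigw at 0.598 ± 0.066.

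The DNA before the starts of Pgap2, Dpm3 and Pigf is shown because the assembled transcripts of these genes varied in where they began or in whether they were present. Each line gives the 250 bases before a RefSeq start (build GRCm38.p6), on the gene's strand. For Pgap2, 1 RefSeq start from each of its start regions is used. In Pgap2 and Pigf, capitals mark matches on either strand to the CCAAT box, to GGGCGG as in a GC box, to TATAAA as in a TATA box and to CCGGAAG as bound by ETS factors. In Dpm3, capitals mark the 58 bases that only the transcript of Gde2KO replicate 1 covered.
Pgap2 upstream start, chr7:102210085-102210334, plus strand: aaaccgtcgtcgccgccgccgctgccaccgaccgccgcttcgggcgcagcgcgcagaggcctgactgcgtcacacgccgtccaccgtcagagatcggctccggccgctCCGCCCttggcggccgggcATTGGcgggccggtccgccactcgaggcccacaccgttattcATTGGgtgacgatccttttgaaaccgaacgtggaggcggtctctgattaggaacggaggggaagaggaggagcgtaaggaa
Pgap2 downstream start, chr7:102222821-102223070, plus strand: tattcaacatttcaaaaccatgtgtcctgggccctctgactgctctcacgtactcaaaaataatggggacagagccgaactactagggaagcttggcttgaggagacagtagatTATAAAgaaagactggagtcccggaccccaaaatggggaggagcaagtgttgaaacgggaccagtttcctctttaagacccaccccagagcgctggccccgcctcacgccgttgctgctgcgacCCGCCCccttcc
Dpm3, chr3:89266211-89266460, plus strand: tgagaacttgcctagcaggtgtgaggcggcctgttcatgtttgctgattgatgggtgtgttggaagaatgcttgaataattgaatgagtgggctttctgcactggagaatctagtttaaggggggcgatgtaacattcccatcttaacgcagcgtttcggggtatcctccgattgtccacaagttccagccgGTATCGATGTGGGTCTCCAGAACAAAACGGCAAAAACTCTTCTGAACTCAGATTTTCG
Pigf, chr17:87025402-87025651, minus strand: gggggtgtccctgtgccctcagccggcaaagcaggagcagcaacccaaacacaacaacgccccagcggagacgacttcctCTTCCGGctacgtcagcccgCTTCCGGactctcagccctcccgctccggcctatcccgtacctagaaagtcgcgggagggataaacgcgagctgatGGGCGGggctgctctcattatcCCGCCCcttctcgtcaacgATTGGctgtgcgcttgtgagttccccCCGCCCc

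RefSeq windows of 300 bases (250 before and 50 after a start) were at hand for 25 of the 30 genes, 35 windows in all, some of which overlap. Their median GC content was 61.3% and their median number of CpG 22, against 61% and 20 over the 12620 windows of genes tested. GGGCGG, the GC box sequence, was in 62.9% of the windows of anchor genes, 62.3% of those of genes tested and 35.7% of all 32851 windows. CCGGAAG, an ETS-type sequence, was in 31.4%, 16.3% and 8.86%. CCAAT was in 40.0%, 37.2% and 37.4%, and TATAAA in 8.57%, 7.11% and 13.6%. A match describes letters only, and windows of 1 gene can share it. A protein-coding gene began head to head within 1000 bases of the start of 7 of the 30 genes (Pigl, Pigw, Pigx, Pign, Pigf, Pgap2 and Dpm1). Among tested genes these were 5 of 27 (18.5%), beside 15.1% of the 12057 protein-coding genes tested.

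The anchor starts with the transfer of N-acetylglucosamine to phosphatidylinositol by a complex with Piga as its catalytic subunit. Of its 5 genes, 4 were tested, 3 were higher and 1 lower in Gde2KO, and none passed. Pigh, a subunit of that complex, had 11.4, 12.9 and 11.9 FPKM in WT and 13.5, 13.7 and 15.6 FPKM in Gde2KO. Every Gde2KO library lay above every WT library, and the fold of 1.18 had a 95% interval of 1.02 to 1.36 (limma, adjusted p = 0.881). Pigq, which stabilises the complex, had 50.8, 59.0 and 59.2 FPKM in WT and 56.3, 60.2 and 51.0 FPKM in Gde2KO, so the groups overlapped fully. Its fold was 0.992 (0.838 to 1.17, limma, adjusted p = 0.987). Piga and Pigc, another subunit, had folds of 1.03 and 1.14 with intervals that included 1. Pigp, a small subunit, was listed at 0 in all 6 libraries. The only transcripts assembled over its exons lay on the opposite strand, where Ttc3 is annotated and had 103 to 113 FPKM.

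The next enzymes act on the core on both faces of the endoplasmic reticulum membrane. Of these 11 genes, 9 were tested, 7 were higher and 2 lower in Gde2KO, and none passed. Pigm, the first mannosyltransferase, had 1.15, 1.38 and 1.37 FPKM in WT and 1.39, 1.59 and 1.48 FPKM in Gde2KO. The groups did not overlap, by a margin of little more than the last digit, and its fold was 1.13 (0.919 to 1.40, limma, adjusted p = 0.881). Pigx, the partner of Pigm, was listed at 0 in WT replicate 1 and Gde2KO replicate 1 and had 6.23 and 6.20 FPKM in the other WT and 7.0 and 6.02 FPKM in the other Gde2KO libraries (limma, adjusted p = 0.999). The 4 libraries with Pigx transcripts thus lay close together in both genotypes.

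Pigf, a partner of the phosphoethanolamine transferases Pigo and Pigg, was assembled in 3 of 6 libraries. It was listed at 0 in WT replicates 1 and 3 and had 11.6 FPKM in WT replicate 2, and it had 9.56, 16.7 and 0 FPKM in Gde2KO replicates 1, 2 and 3 (limma, adjusted p = 0.883). Its transcripts held 4 exons and 725 bases in WT replicate 2, 6 and 983 in Gde2KO replicate 1, and 3 and 593 in Gde2KO replicate 2. The FPKM values thus come from pieces of unlike length. Assembly of the gene did not follow genotype. Its neighbour Cript, which starts 144 bases away on the other strand, had transcripts in all 6 libraries, with 26.0, 23.2 and 24.9 FPKM in WT and 28.8, 26.7 and 39.8 FPKM in Gde2KO. At its far end Pigf shares exonic bases with Rhoq on the opposite strand, which was assembled in all 6 libraries.

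Pigl, the deacetylase, and Pigw, the inositol acyltransferase, had a mean under 1 FPKM and were not tested. Pigl had 1.25, 1.17 and 0.199 FPKM in WT and 1.14, 1.41 and 0 FPKM in Gde2KO. Pigw had 0.673, 0.571 and 0.548 FPKM in WT and 0.542, 0.799 and 0.785 FPKM in Gde2KO. Both genes had overlapping groups. The remaining genes of this step, Pigv, Pign, Pigb, Pigo and Pigg, had folds of 0.997 (Pigo) to 1.11 (Pigg), all with intervals that included 1. The level of Pigo, which adds phosphoethanolamine to the third mannose, was 3.78, 3.77 and 3.54 FPKM in WT and 3.73, 3.47 and 3.88 FPKM in Gde2KO, with a 95% interval of the fold of 0.88 to 1.13.

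Pigz, which adds a side mannose to the core, had 8.79, 6.91 and 8.03 FPKM in WT and 5.69, 5.46 and 6.64 FPKM in Gde2KO. Every Gde2KO library was below every WT library, and the fold was 0.754 (0.613 to 0.927, limma, adjusted p = 0.881). The last exon of its longest transcript held 1975, 1855 and 1986 bases in WT and 3822, 3822 and 3879 bases in Gde2KO. At its other end, the start of Pigz shares exonic bases with Gm49731, an annotated gene on the same strand, and those bases were left out of the level. The fragment abundance, which is the FPKM times the assembled length in kilobases, was 30.8, 30.03 and 32.1 in WT and 31.6, 31.1 and 32.5 in Gde2KO, a log2 difference of 0.06 with overlapping groups. The transcripts ended 58 to 189 bases past the annotated end of Pigz in WT and 2025 to 2082 bases past it in Gde2KO, where they shared 1022 to 1079 bases with exons of 0610012G03Rik on the opposite strand. The added length, and the fragments counted over it, thus lie outside the annotated gene, and their part in the lower FPKM was not tested.

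The transamidase has Pigk as its catalytic subunit, with Pigs, Pigt, Pigu and Gpaa1. Of the 5 genes, 4 were higher and 1 lower, and none passed. Pigu had 16.3, 16.1 and 17.7 FPKM in WT and 18.3, 18.4 and 13.9 FPKM in Gde2KO, with a fold of 1.001 (0.807 to 1.24, limma, adjusted p = 0.999). Gpaa1 and Pigt had folds of 1.004 and 0.988. Their intervals were 0.854 to 1.18 and 0.830 to 1.18.

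Pigs had 39.7, 40.1 and 23.3 FPKM in WT and 41.9, 41.7 and 207 FPKM in Gde2KO. Its groups did not overlap, but 2 libraries set the spread. In Gde2KO replicate 3 the sole transcript over Pigs ran through from Aldoc, a gene for a glycolytic aldolase that ends 633 bases before Pigs on the same strand, as 1 transcript of 18 exons and 5902 bases at 206 FPKM. In WT replicate 3 Pigs was assembled in 3 pieces that covered 60.7% of its measured bases. Aldoc itself had 971, 968 and 1061 FPKM in WT and 807, 749 and 598 FPKM in Gde2KO. The log2 difference of Pigs was 1.09 (limma, adjusted p = 0.881), 0.33 without Gde2KO replicate 3, and -2.97 when each transcript was given to 1 gene and summed.

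Pigk had 14.4, 14.5 and 5.37 FPKM in WT and 14.6, 5.81 and 15.9 FPKM in Gde2KO. The low libraries, WT replicate 3 and Gde2KO replicate 2, came from both genotypes. In these, the assembled pieces covered 32.5% of the measured bases. The main transcript ended at the same base in both, in an exon of 85 bases, against 3556 to 3699 bases in the other 4 libraries. The longest piece of Gde2KO replicate 2 was a separate one further downstream, with a last exon of 289 bases. A similar downstream piece was assembled in WT replicates 1 and 3 and Gde2KO replicates 1 and 3.

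**Figure D2:**
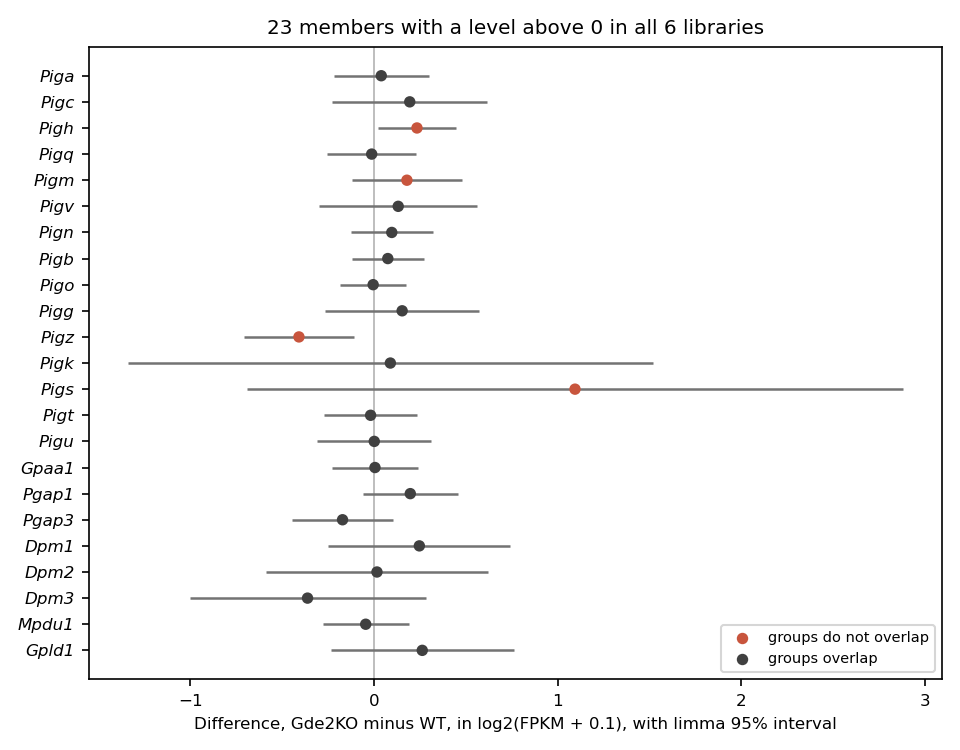
Difference in log2(FPKM + 0.1), Gde2KO minus WT, with limma's 95% interval, for the 23 tested anchor genes with a level above 0 in all 6 libraries. The intervals of Pigh and Pigz exclude 0, and those of Pigk and Pigs are wide because single libraries lie far from the rest.

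Remodelling after attachment was where the 1 call fell. Mppe1 (also called Pgap5) lies on chr18:67225043-67245830, minus strand, on another chromosome than Gdpd5. Its end overlaps the end of Gnal on the plus strand over 852 exonic bases. Gnal encodes a G protein alpha subunit that couples receptors to adenylyl cyclase. In the 3 WT libraries no assembled transcript on the Mppe1 strand touched any of the 11 exons of its annotated transcript. Whether Mppe1 RNA was absent from WT, or present and not assembled, was not tested. WT replicate 2 held 2 transcripts without strand, of 465 and 376 bases at 0.890 and 0.918 FPKM, that lay in introns, and WT replicates 1 and 3 held none within the gene.

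Each Gde2KO library held Mppe1 transcripts on the annotated strand. Gde2KO replicate 1 had transcripts of 10 and 8 exons at 4.76 and 2.29 FPKM, and they touched 10 of the 11 annotated exons. Gde2KO replicate 2 had 3 pieces at 15.7, 3.12 and 1.38 FPKM that together touched all 11. Gde2KO replicate 3 had a single transcript of 11 exons and 2292 bases at 10.3 FPKM, with the annotated order of introns. The level over the measured bases was 0, 0 and 0 FPKM in WT and 6.39, 8.85 and 10.4 FPKM in Gde2KO. The groups were thus fully apart (limma, adjusted p = 0.00130). With WT at 0 throughout, the spread behind this p came only from the Gde2KO libraries and from limma's moderation over genes. Because no base of the gene was assembled on its strand in WT, the measured bases are those assembled in all 3 Gde2KO libraries. No fold is given. The adjusted p was 0.00350 to 0.0310 (limma) when any 1 library was left out. These fits kept the measured bases chosen with all libraries, so they give no separate support for the call.

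Opposite-strand transcripts were present over Mppe1 in all 6 libraries. A single-exon transcript of 813 to 836 bases had 37.4, 34.7 and 34.9 FPKM in WT and 28.1, 32.9 and 30.4 FPKM in Gde2KO. A Gnal transcript of 12 exons that reached the last exon of Mppe1 had 32.8, 30.04 and 27.2 FPKM in WT and 25.0 FPKM in Gde2KO replicate 1. In Gde2KO replicate 3 this was split into transcripts of 7.25 and 19.0 FPKM, and in Gde2KO replicate 2 no such transcript reached Mppe1. The level of Gnal was 32.1, 30.4 and 28.6 FPKM in WT and 26.0, 14.3 and 24.3 FPKM in Gde2KO, and the groups did not overlap (log2 difference -0.54, SE 0.24, limma, adjusted p = 0.881). No label used here says whether the libraries kept strand, and 13.1% to 14.1% of the assembled transcripts in each library had none. This bears on the values of 0 of Mppe1 in WT and of Pigp, and was not tested. Exons 1 to 9 of the Mppe1 transcript share no base with Gnal. Over these, Gde2KO replicate 1 had 4.76 FPKM in exon 1 and 7.05 FPKM in each of the others, and Gde2KO replicate 3 had 10.3 FPKM in all. Gde2KO replicate 2 was uneven, with 1.38, 4.50 and 4.12 FPKM in exons 1, 2 and 3 and 15.7 FPKM in exons 4 to 9.

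**Figure D3:**
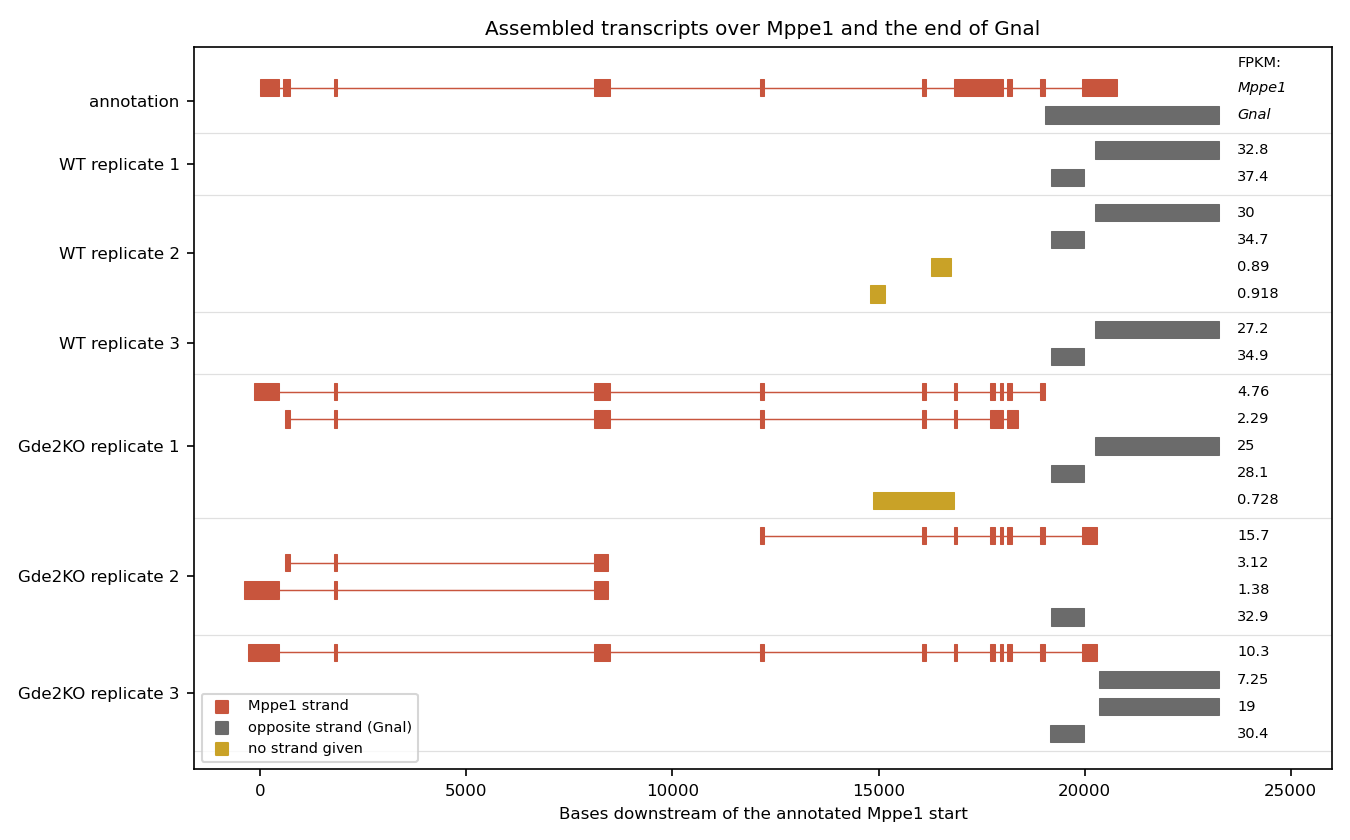
Assembled transcripts over Mppe1 in each library against the distance in bases from its annotated start, with boxes for exons, lines for introns, colours for strand and the FPKM of each transcript at the right. Red transcripts on the Mppe1 strand are seen in the 3 Gde2KO libraries, and grey opposite-strand transcripts at the end of Gnal in all 6.

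Pgap2, which helps to fit a saturated fatty acid to the anchor lipid in the Golgi, lies on chr7:102210208-102238567, plus strand, 2.75 Mb from Gdpd5. It shares exonic bases with AC139579.1, an annotated gene on the same strand, and those bases were left out of the level. The level was measured over 624 of its 4529 exonic bases. In WT replicate 1, 62.8% of these measured bases were assembled. Fragment abundance, given below, takes the whole assembled length instead. Pgap2 had 6.20, 5.84 and 6.27 FPKM in WT and 3.41, 0 and 3.65 FPKM in Gde2KO. The WT libraries were closely grouped and all above the Gde2KO libraries, and Gde2KO replicate 2 held no Pgap2 transcript. The difference did not pass (limma, adjusted p = 0.881). With that library left out the log2 difference was -0.77 (limma, adjusted p = 0.111).

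The longest Pgap2 transcript ended 1034 to 1149 bases short of the annotated end of the gene in WT and 378 and 479 bases past it in Gde2KO replicates 1 and 3. Its last exon held 18, 133 and 25 bases in the WT libraries and 1545 and 1646 bases in Gde2KO replicates 1 and 3. Gde2KO replicate 2 apart, in fragment abundance (FPKM times assembled kilobases) the order was turned, with 10.3, 9.56 and 9.20 in WT and 11.8 and 12.8 in Gde2KO replicates 1 and 3. Transcripts began in both start regions, from which the sequences above were taken. The upstream start, which faces Nup98 at a distance of 32 bases, held 35.5% and 31.5% of the Pgap2 FPKM in WT replicates 2 and 3, 37.6% and 46.6% in Gde2KO replicates 1 and 3, and none in WT replicate 1. The 2 Gde2KO shares lay above the 2 WT shares, with no test of so few libraries, and WT replicate 1 used only the downstream start.

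**Figure D4:**
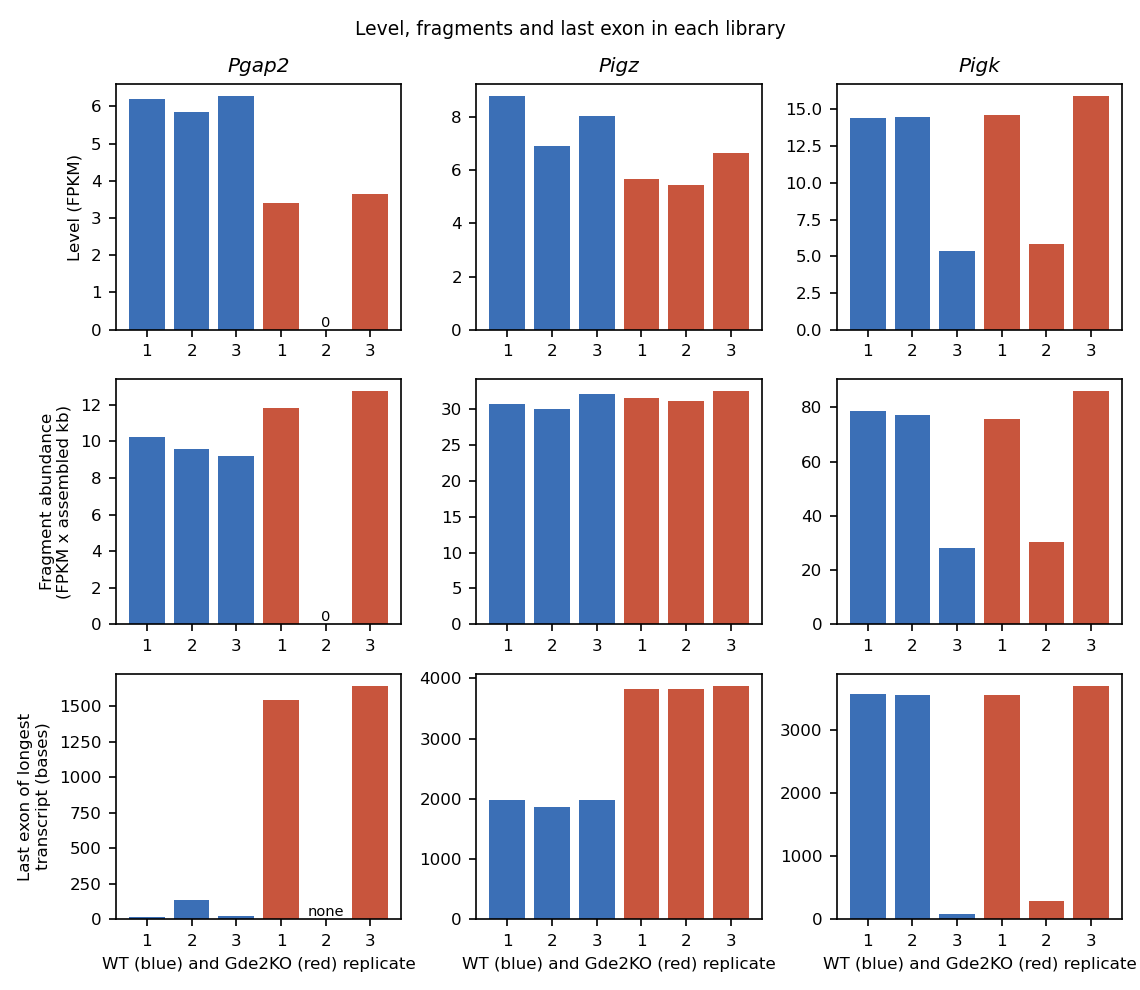
Level in FPKM (top), fragment abundance as FPKM times assembled kilobases (middle) and length of the last exon of the longest transcript in bases (bottom) for Pgap2, Pigz and Pigk, with 1 bar per library, WT in blue and Gde2KO in red. In Pgap2 and Pigz the Gde2KO libraries with transcripts have lower FPKM, a longer last exon and a fragment abundance as high or higher. In Pigk WT replicate 3 and Gde2KO replicate 2 lack the long last exon. The bottom Pigk bar of Gde2KO replicate 2 is from a separate downstream piece.

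The other remodelling genes had overlapping groups. Pgap1, the inositol deacylase, had 2.09, 1.94 and 1.93 FPKM in WT and 2.42, 2.01 and 2.48 FPKM in Gde2KO, with a fold of 1.15 (0.960 to 1.37). Pgap3, which is needed to remove an unsaturated fatty acid, had 1.81, 2.12 and 2.06 FPKM in WT and 1.60, 1.77 and 1.94 FPKM in Gde2KO, with a fold of 0.888 (0.734 to 1.07). Of the 4 remodelling genes, 2 were higher and 2 lower.

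Dolichol phosphate mannose is made by Dpm1 with its partners Dpm2 and Dpm3, and Mpdu1 is needed for its use. Of these 4 genes, 2 were higher and 2 lower on the log2 scale, and none passed. Dpm3, which tethers Dpm1 to the membrane, had 44.7, 45.6 and 44.0 FPKM in WT and 22.9, 41.4 and 44.4 FPKM in Gde2KO. Gde2KO replicate 1 alone was low, and the log2 difference of -0.36 became -0.06 without it. Its Dpm3 transcript of 531 bases began in the capitals printed above, where the transcripts of the other libraries held 337 to 364 bases. Its fragment abundance was 11.96, against 14.6 to 16.5 in the other libraries. This was also the library with the lowest connective tissue and Schwann cell markers, whose part in the value was not tested. Dpm2 had 15.6, 20.2 and 28.1 FPKM in WT and 18.6, 25.4 and 19.4 FPKM in Gde2KO, with a fold of 1.01 on the log2 scale (0.666 to 1.54, limma, adjusted p = 0.993) and a slightly lower mean FPKM in Gde2KO (21.1 against 21.3). The spread of Dpm2 within WT was larger than its difference between the genotypes. In WT replicate 1, the lowest library, the sole Dpm2 transcript of 287 bases, at 57.0 FPKM, covered 28.3% of the measured bases. In the other libraries 86.6% to 100% were covered, and the part of this in the spread was not tested.

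Dpm1 shares most of its exons with Gm20716, an annotated gene that runs through Dpm1 and Adnp. Its level was therefore measured outside the shared bases, and was 4.24, 2.98 and 3.05 FPKM in WT and 4.86, 4.14 and 3.24 FPKM in Gde2KO. In WT replicates 2 and 3 and Gde2KO replicate 3, Dpm1 was assembled as 1 transcript of 12 exons together with Adnp, at 18.7, 18.8 and 19.96 FPKM. Fused transcripts were thus seen in both genotypes. In the libraries with the fused transcript, 16.1% of the measured Dpm1 bases were assembled, against 100% in each of the others. They also had the lowest levels of Dpm1, and the part of this in its difference between genotypes was not tested. Mpdu1 had a fold of 0.969 (0.824 to 1.14).

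Gpld1, an enzyme that cuts the bond between the anchor and its lipid, had 31.4, 36.2 and 46.9 FPKM in WT and 36.4, 48.0 and 52.9 FPKM in Gde2KO. The groups overlapped, with a fold of 1.2 (0.850 to 1.69, limma, adjusted p = 0.881). Its transcripts held 26 to 28 exons in all 6 libraries. Fragment abundance was 183, 142 and 145 in WT and 140, 147 and 161 in Gde2KO, a log2 difference of -0.03. The last exon of the longest Gpld1 transcript held 2466 bases in WT replicate 1 and 23 to 109 bases in the other libraries. The part of this exon in the difference was not tested.

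A gene listed at 0 in a library was not rare in this pathway. Of the 30 anchor genes, 6 were listed at 0 in at least 1 library (Pigp, Mppe1, Pigf, Pigx, Pigl and Pgap2). Among tested anchor genes, 2 of the 9 that share exonic bases with a gene on the opposite strand were listed at 0 somewhere, and 2 of the other 18. Over all genes tested the shares were 6.51% with and 2.95% without such a neighbour. The other anchor genes listed at 0, Pigp and Pigl, were not tested, and both have such a neighbour. Whether a value of 0 reflects absent RNA or a transcript that could not be assembled was not tested.

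Genes next to the anchor pathway did not pass the test in either direction. Among 12 further genes of the GPI pathway, 7 were above WT and 5 below it, and the median log2 difference was 0.01. The smallest unadjusted p-values belonged to Tmed5, a cargo receptor of the p24 family (WT 3.39 ± 0.17 and Gde2KO 3.92 ± 0.58 FPKM, SD over 3 libraries), Tmem8 (5.12 ± 0.40 and 4.21 ± 0.95) and Pyurf (7.89 ± 0.78 and 6.39 ± 1.73). Among 23 tested genes of dolichol and N-glycan assembly, some of which use the anchor's mannose donor, 16 were higher and 7 lower. Their median was 0.02. The sugar transferases Alg8 (2.13 ± 0.25 and 1.72 ± 0.05 FPKM) and Alg9 (6.39 ± 1.30 and 4.78 ± 0.40 FPKM) were lower in mean. Both had groups that did not overlap and an adjusted p of 0.881 in limma. Among 13 genes of the oligosaccharyltransferase and of O-mannosylation, 10 were higher and 3 lower, with a median of 0.05, led by Magt1 (8.66 ± 0.46 and 9.82 ± 0.75), Tusc3 (21.4 ± 7.0 and 29.7 ± 9.1) and Pomt1 (4.61 ± 0.25 and 4.95 ± 0.10). An unadjusted p under 0.05 (limma) was found for 3 of the 27 tested anchor genes (Mppe1, Pigz and Pigh) and for 508 of all 12890 genes tested (3.94%). Of these anchor genes, Mppe1 reached the test only through its Gde2KO libraries.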

How the data were processed

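Poly-adenylated RNA from 6 libraries was sequenced, per the labels' protocols. The submitters' processing notes name TopHat2 2.1.1, Cufflinks 2.2.1, Cuffdiff 2.2.1 and the build mm10, with no settings. The deposited values are FPKM of transcripts that the authors assembled in each library separately, written beside each transcript as text (the coverage beside it served only for relative depth). Here a gene's level was the FPKM of all transcripts of 200 or more bases on its strand or without strand, summed at each base of its GENCODE vM21 exons and averaged over bases assembled in at least 3 libraries and not shared with a same-strand gene. Levels were scaled by median of ratios (factors 0.982 to 1.04), and genes with 200 or more such bases and a mean of at least 1 FPKM were compared with limma 3.58.1 (R 4.3.3; trend and robust, two-sided) on log2(FPKM + 0.1), which understates folds of low genes, with Benjamini-Hochberg adjustment over all genes. Fragment abundance is FPKM times assembled length. The fit was tested on simulated data. The files give no counts, so only the spread between libraries (3 per group; an exact permutation test cannot go below 0.10) sets the precision. The median half-width of the 95% interval was 0.28 (log2).

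The members and lists were chosen with earlier results of these data known. Full values are given for genes that passed, whose groups did not overlap or that were listed at 0, and for the lowest and highest p of each role. Alternatives were the scaling, pseudocount, filters, ways of assigning transcripts, moderation, a replicate block and leaving out each library. Upstream windows come from RefSeq. 1 item among the lists is not reported here.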

Additional observations from a re-analysis of the deposited data

How the results depend on the processing

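In none of the 20 alternatives did a tested anchor gene other than Mppe1 pass. Mppe1 passed in 16 of the 18 that could test it, all of which took it in through its Gde2KO libraries and give no separate support. It did not with a pseudocount of 0.01 (fitted log2 difference 9.71, adjusted p = 0.341), and with values of 0 as missing or a mean of at least 5 FPKM it could not be tested, so the number of anchor genes called was 0 in these 3. With the replicate number as a block in limma, Mppe1 (fitted log2 difference 6.41, adjusted p = 0.116) and Gdpd5 (-2.30, adjusted p = 0.158) did not pass. In that fit 0 anchor genes were called and 2 genes in all (0 higher, 2 lower). Deviations of same-numbered libraries from their group means had r = 0.01, 0.03 and -0.07. By these r, 1 of 3 Gde2KO libraries correlated best with its own number. Taken within groups of 3, such correlations cannot decide whether the numbers pair the libraries, and the titles do not say. Gdpd5 also missed the threshold in the plain sum of transcripts (-1.45, adjusted p = 0.0802) and passed in 17 of 19 alternatives. The fitted differences of Mppe1 are set by the pseudocount, since WT is at 0, and are neither folds nor bounds. Over all genes, 15 calls became 4 (1 higher, 3 lower) with a pseudocount of 0.01 and with values of 0 as missing, and 0 at a mean of at least 5 FPKM. Calls in 1 direction moved by over 1.5 times in the plain sum (3 higher), in fragments per gene (6 lower) and with no filter on the mean (9 higher). Leaving out 1 library gave 10 to 26 calls, 3 to 22 higher and 3 to 20 lower. The direction of 16 of 27 tested anchor genes turned in at least 1 alternative and held for 11, among them Pigh, Pigm, Pgap2 and Mppe1; Pigz turned in fragments per gene (0.06). Pgap2 passed in no alternative (log2 -0.97 with bases assembled in any library). What caused these changes was not tested. The files hold no counts, which limits what can be said of genes listed at 0.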
